A study of Mus musculus with 9 samples.

Results

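Insulin-like growth factor 1 (IGF1) and the proteins that produce, receive and buffer its signal were followed by transcript level in the postnatal mouse heart. The set has 10 genes: the hormone gene Igf1, the growth hormone receptor gene Ghr, the receptor genes Igf1r and Insr, and the binding protein genes Igfbp2, Igfbp3, Igfbp4, Igfbp5, Igfbp6 and Igfbp7. They were chosen by name, with earlier results of these data known, as probe sets that the platform annotation gives a single gene symbol. All 10 were measured, out of 19938 genes in the table. Insr had 2 such probe sets and the one with the higher mean was used; each of the others had 1. Hearts came from C57BL/6 mice, an inbred strain with no stated genetic change or treatment, at 24 hours, 7 days and 10 weeks after birth. Each age has 3 Affymetrix Mouse Gene 1.0 ST arrays of total RNA from cardiac muscle, 9 in all, and every value below is a log2 signal, so that a difference of 1 is a 2-fold change.

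IGF1 is a small peptide hormone made by the liver under growth hormone and also by cells within many tissues, the heart among them. It acts through the IGF1 receptor, a tyrosine kinase closely related to the insulin receptor, which passes the signal to the PI3K, AKT and mTOR pathway of cell growth. In blood and tissue fluid most IGF is held by binding proteins, which can prolong its life, keep it from its receptor or release it when a protease cuts them. IGF2, the related fetal growth factor, also acts through the IGF1 receptor and is cleared by a receptor of its own.

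The labels do not say whether the replicates of an age were separate animals, so p-values measure the spread between these arrays, and 3 arrays per age limit the precision. Of 7 cardiomyocyte markers all were bright on every array, with a summed linear signal of 44992 to 45436 at 24 hours, 43085 to 44147 at 7 days and 43318 to 44130 at 10 weeks. By limma's test 1 of them rose and 3 fell between 24 hours and 10 weeks (adjusted p under 0.05). Of all genes 19.5% rose and 20.6% fell there. Whether the share of cardiomyocytes was constant was not tested. The 7-day replicates 2 and 3 stood apart by brown fat transcripts: Ucp1 measured 11.23 and 9.27 there, and 4.30 on replicate 1. The Y-linked gene Eif2s3y measured 2.87 to 3.30 at 10 weeks, against 6.06 to 7.70 at the younger ages, while Xist lay between 8.26 and 9.56 on all arrays, so the sex of the animals and the step to 10 weeks cannot be told apart. Every 24-hour and 7-day array thus had a clear signal of both genes. Eif2s3y was highest on 24-hour replicate 2 (7.70) and 7-day replicate 1 (7.60), where Xist was lowest (8.30 and 8.26). Whether these younger arrays pool animals of both sexes was not tested. In heart RNA, fewer cells of a type and less RNA per cell cannot be told apart either. The 3 comparisons between ages share arrays, so they are not independent of each other.

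The receptor gene Igf1r fell in both steps, Igf1 and Igfbp5 were lowest in the adult heart, Igfbp7 was highest at 7 days, and Ghr was highest in the adult. Between 24 hours and 7 days 2 of the 10 genes rose and 3 fell by limma's test at an adjusted p under 0.05; of all 19938 genes 10.1% were called, 5.27% higher and 4.81% lower. Between 7 days and 10 weeks 2 rose and 5 fell, where 35.9% of all genes were called, 17.0% higher and 18.9% lower. Between 24 hours and 10 weeks 3 rose and 4 fell, where 40.1% of all genes were called, 19.5% higher and 20.6% lower. The arrays of the 2 ages did not overlap for 8 of the 10 genes in the first week, against 27.1% of all genes. The same held for 8 between 7 days and 10 weeks, against 44.3%, and for 7 between 24 hours and 10 weeks, against 48.2%. The median absolute difference of the 10 genes was 0.44, 0.39 and 0.52 in these comparisons, and 0.08, 0.15 and 0.16 over all genes, of which many are dim. Since the 10 genes were chosen with earlier results known, these counts and medians carry no test of the set. The median signed difference of the 10 genes was -0.02, -0.15 and -0.13, so the genes did not share a direction.

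**Figure D1:**
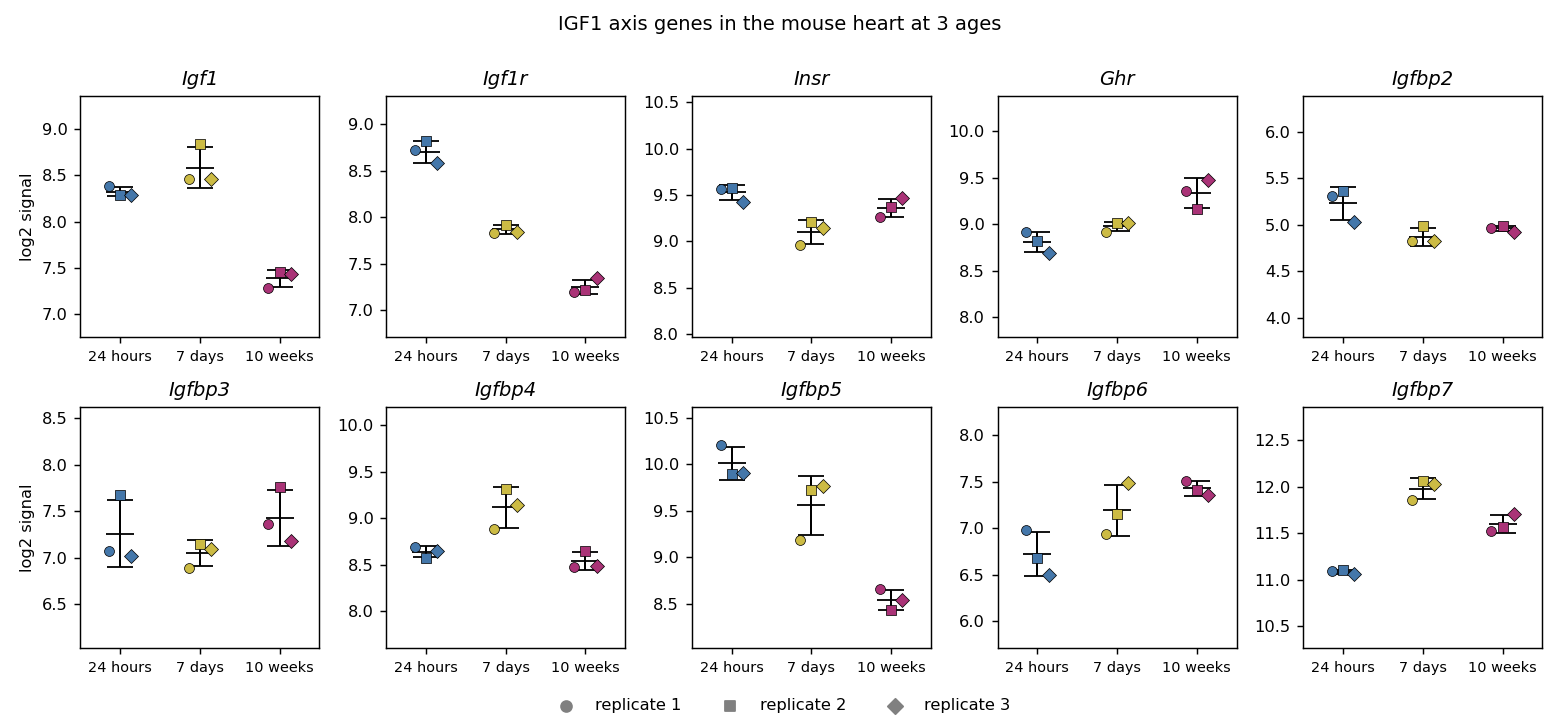
Log2 signal (y axis, the same span in every panel) of the 10 genes on each array at 24 hours, 7 days and 10 weeks; symbols are replicates 1, 2 and 3, and black bars are the mean and SD of 3 arrays. Igf1r steps down at each age, Igf1 and Igfbp5 are lowest at 10 weeks, and Igfbp7 and Igfbp4 are highest at 7 days.

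The start regions of the 4 genes with the largest differences between 2 ages, Igf1r, Igf1, Igfbp5 and Igfbp7, are shown to set their base composition side by side. RefSeq windows of the GRCm38.p6 build, from 250 bases before to 50 bases after a gene's first listed start, were matched for 9 of the 10 genes. Of each of the 4 windows the 150 bases before the start are printed, 5′ to 3′ on the gene's own strand, with capitals for matches on either strand to the motifs named after them. They lie at chr7:67952107-67952256 (plus strand) for Igf1r, chr10:87860961-87861110 (plus strand) for Igf1, chr1:72874866-72875015 (minus strand) for Igfbp5 and chr5:77408046-77408195 (minus strand) for Igfbp7.
Igf1r: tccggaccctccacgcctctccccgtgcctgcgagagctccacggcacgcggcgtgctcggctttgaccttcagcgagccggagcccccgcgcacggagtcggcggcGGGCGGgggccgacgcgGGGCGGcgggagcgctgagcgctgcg
Igf1: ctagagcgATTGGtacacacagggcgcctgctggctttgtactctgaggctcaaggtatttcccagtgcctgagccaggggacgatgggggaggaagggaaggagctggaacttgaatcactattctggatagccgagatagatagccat
Igfbp5: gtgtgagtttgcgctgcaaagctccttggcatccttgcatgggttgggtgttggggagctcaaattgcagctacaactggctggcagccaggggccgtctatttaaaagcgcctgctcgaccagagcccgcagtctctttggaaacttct
Igfbp7: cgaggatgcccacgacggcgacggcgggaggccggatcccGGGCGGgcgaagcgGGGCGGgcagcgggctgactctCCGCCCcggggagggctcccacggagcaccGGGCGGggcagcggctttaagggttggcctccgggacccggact
Both strands were searched for the GC box, spelled GGGCGG, and for the CCAAT box, spelled as its name. They were also searched for the TATA box, spelled TATAAA, for the STAT5 site, spelled TTCNNNGAA, and for a FOXO site, spelled TGTTTAC; none of these can be contained in another. The Igf1r stretch holds 2 GC boxes and the Igfbp7 stretch 4, in windows of 76.0% and 73.3% G and C. The Igf1 stretch holds 1 CCAAT match, on the minus strand of the gene, in a window of 52.3% G and C, and the Igfbp5 stretch none of the motifs, in a window of 56.3%. Over all 32851 windows of the same 300 bases, 35.7% hold the GC box, 37.4% the CCAAT box, 13.6% the TATA box, 8.3% the STAT5 site and 3.65% the FOXO site. None of the listed windows of the 9 genes holds the STAT5 or the FOXO site, which says only that these letters are not in these windows.

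Growth hormone receptor transcripts were highest in the adult heart. Ghr, whose product starts the signal that raises Igf1 in liver, measured 8.92, 8.82 and 8.69 at 24 hours, 8.92, 9.01 and 9.01 at 7 days, and 9.36, 9.16 and 9.48 at 10 weeks. The 10-week arrays lay above all 6 younger ones, while the 2 younger ages differed by less than their test could call (7 days minus 24 hours 0.17 ± 0.08 SE, adjusted p = 0.303; 0.11 without 24-hour replicate 3). The adult level was 0.36 ± 0.08 above that at 7 days (adjusted p = 0.00702) and 0.53 ± 0.08 above that at 24 hours (1.44-fold, adjusted p = 0.000531). Without 7-day replicates 2 and 3 the step from 7 days was 0.41 and did not pass (adjusted p = 0.068).

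Igf1 itself was lowest, not highest, in the adult heart. It measured 8.38, 8.29 and 8.29 at 24 hours, 8.46, 8.83 and 8.46 at 7 days, and 7.28, 7.46 and 7.43 at 10 weeks. Every 10-week array lay below every younger one. The adult level was 1.19 ± 0.10 lower than at 7 days (2.28-fold, adjusted p = 5.84e-06) and 0.93 ± 0.10 lower than at 24 hours (1.91-fold, adjusted p = 2.54e-05). The 7-day mean of 8.58 ± 0.22 (SD, n = 3 arrays, also below) was 0.26 above the 24-hour mean of 8.32 ± 0.05, which did not pass limma's test (adjusted p = 0.154). Without 7-day replicate 2 this difference was 0.13. The Igf1 signal of 7-day replicate 2, the array with the most Ucp1, was the highest of the 9.

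The receptor gene Igf1r fell in both steps, with no overlap between any 2 ages. Its signals were 8.72, 8.82 and 8.58 at 24 hours, 7.83, 7.92 and 7.84 at 7 days, and 7.20, 7.22 and 7.35 at 10 weeks. The first week took it down by 0.84 ± 0.07 on the log2 scale (adjusted p = 7.23e-05) and the time from 7 days to 10 weeks by a further 0.61 ± 0.07 (adjusted p = 6.7e-05). In all it fell by 1.45 ± 0.07, or 2.73-fold, between 24 hours and 10 weeks (limma's adjusted p = 9.84e-08). All 3 differences passed under each of the 21 alternatives tried, over which the first-week difference lay between -0.98 and -0.78.

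Insr, the insulin receptor gene, had its lowest level at 7 days. It measured 9.57, 9.58 and 9.43 at 24 hours, 8.96, 9.21 and 9.14 at 7 days, and 9.26, 9.37 and 9.47 at 10 weeks. All 7-day arrays lay below all others, and the 10-week arrays overlapped the 24-hour ones. The 7-day level was 0.43 ± 0.08 lower than at 24 hours (adjusted p = 0.00695), and the 10-week level was 0.26 ± 0.08 higher than at 7 days (adjusted p = 0.025). The second of these is not firm: it was 0.19 without 7-day replicate 1, 0.26 without 10-week replicate 2, 0.21 without 10-week replicate 3 and 0.26 with the 6 arrays compared alone, and none of these passed (adjusted p = 0.0531 to 0.0898). The second Insr probe set measured 8.49, 8.61 and 8.50 at 24 hours, 8.03, 8.26 and 8.05 at 7 days, and 8.16, 8.33 and 8.33 at 10 weeks. In a fit over all probe sets it too fell in the first week, by 0.42 ± 0.08 on the log2 scale (adjusted p = 0.019), but its later difference of 0.16 ± 0.08 did not pass (adjusted p = 0.189). From 24 hours to 10 weeks the used probe set differed by -0.17 (adjusted p = 0.126) and the second by -0.26 (adjusted p = 0.0329), both below 0, and the difference between the probe sets was not tested.

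**Figure D2:**
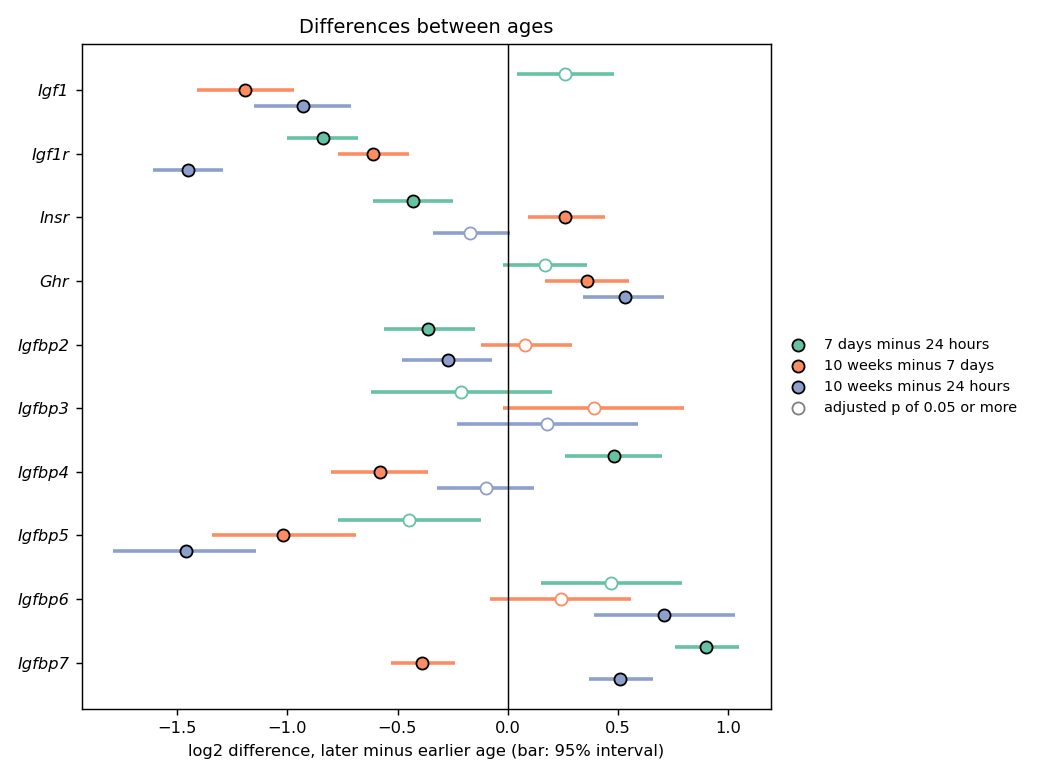
Log2 difference between ages (x axis, later minus earlier) of the 10 genes, with bars for 95% intervals that are not adjusted for the number of genes; filled points had an adjusted p under 0.05 in limma's test. Igf1r lies left of 0 in all 3 comparisons, at -0.84, -0.61 and -1.45, and Igfbp3 has intervals across 0 in each.

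Of the binding protein genes Igfbp5 fell most. It encodes a secreted protein that binds IGFs and the extracellular matrix. Its signals were 10.21, 9.90 and 9.91 at 24 hours, 9.19, 9.73 and 9.77 at 7 days, and 8.66, 8.43 and 8.54 at 10 weeks. The 3 ages did not overlap, and 7-day replicate 1 lay well below the other 7-day arrays. The adult level was 1.02 ± 0.15 below that at 7 days (2.02-fold, adjusted p = 0.00028) and 1.46 ± 0.15 below that at 24 hours (2.76-fold, adjusted p = 1.59e-05). The first week gave a difference of -0.45 ± 0.15 that did not pass (adjusted p = 0.0889), and was -0.26 without 7-day replicate 1. It passed with the test run only over the 10496 genes whose highest age mean lay above the median of all gene means (adjusted p = 0.0465). Replicate 1 decides how the fall is divided: without 7-day replicates 2 and 3, which leaves that array alone, the first step was -0.82 and passed (adjusted p = 0.0285), and the second was -0.65 and still passed.

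Igfbp2 encodes the binding protein that is abundant in fetal serum and tissue. It was the dimmest of the 10 genes, at 5.31, 5.36 and 5.03 at 24 hours, 4.82, 4.99 and 4.82 at 7 days, and 4.96, 4.99 and 4.92 at 10 weeks, below the median of all genes (5.57). The 24-hour arrays lay above all others. The 7-day level was 0.36 ± 0.09 lower than at 24 hours (adjusted p = 0.035), and the 10-week level was 0.27 ± 0.09 lower than at 24 hours (adjusted p = 0.0363). Neither is firm: the first passed in 11 of 20 alternatives and the other in 10 of 20. With 1 array left out the first lay between -0.46 and -0.29 and passed in 4 of 9, failing without 24-hour replicates 1 or 2, 7-day replicates 1 or 3 or 10-week replicate 1. The other lay between -0.38 and -0.21 and passed in 3 of 9, failing without 24-hour replicates 1 or 2, 7-day replicate 3 or any 10-week replicate. The table has no detection flags, so whether this signal exceeds background is not known. Igfbp2 and Igfbp5 follow each other on chromosome 1 with no other protein-coding gene between them in RefSeq.

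Igfbp7 rose most in the first week. Its product binds IGFs weakly and is found in vessel walls and basement membrane. It measured 11.09, 11.10 and 11.06 at 24 hours, 11.86, 12.06 and 12.03 at 7 days, and 11.52, 11.57 and 11.71 at 10 weeks, and no 2 ages overlapped. The 7-day level was 0.90 ± 0.06 above that at 24 hours (1.87-fold, adjusted p = 2.56e-05). The adult level was 0.39 ± 0.06 below that at 7 days (adjusted p = 0.000822) and still 0.51 ± 0.06 above that at 24 hours (1.43-fold, adjusted p = 9.04e-05). The rise passed under all 21 alternatives, while the later fall was -0.26 and did not pass without 7-day replicates 2 and 3 (adjusted p = 0.0579).

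Igfbp4, whose product is a target of the protease PAPP-A, had its peak at 7 days as well. It measured 8.69, 8.57 and 8.65 at 24 hours, 8.89, 9.32 and 9.14 at 7 days, and 8.48, 8.65 and 8.49 at 10 weeks. The 7-day arrays lay above all others, and the other ages overlapped. Its 7-day level was 0.48 ± 0.10 above that at 24 hours (adjusted p = 0.0116), and its adult level was 0.58 ± 0.10 below that at 7 days (1.49-fold, adjusted p = 0.000888). The first-week rise was 0.45 without 24-hour replicate 2, 0.47 without 7-day replicate 3, 0.26 without 7-day replicates 2 and 3 and 0.44 without the 3 arrays with the highest Alb signal, and in none of these did it pass. The fall to 10 weeks passed under all 21 alternatives, and was -0.35 without 7-day replicates 2 and 3.

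Igfbp6, which encodes a binding protein with a preference for IGF2, was higher in the adult than in the newborn. Its signals were 6.98, 6.68 and 6.50 at 24 hours, 6.94, 7.15 and 7.48 at 7 days, and 7.51, 7.41 and 7.36 at 10 weeks. Neighbouring ages overlapped, and the outer ages did not. The 10-week level was 0.71 ± 0.14 above that at 24 hours (1.63-fold, adjusted p = 0.00252), and the single steps of 0.47 ± 0.14 (adjusted p = 0.0732) and 0.24 ± 0.14 (adjusted p = 0.226) did not pass. The first step did pass without 24-hour replicate 1 (0.60, adjusted p = 0.0404) or without 7-day replicate 1 (0.59, adjusted p = 0.0389). It also passed in the test over genes whose highest age mean lay above the median of all gene means (adjusted p = 0.0374). The second step was 0.12 without 7-day replicate 1 and 0.39 without 7-day replicate 3.

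Igfbp3, the gene of the main IGF carrier in adult blood, passed in no comparison. It measured 7.07, 7.68 and 7.02 at 24 hours, 6.89, 7.15 and 7.10 at 7 days, and 7.36, 7.76 and 7.18 at 10 weeks. Replicate 2 lay above the other arrays of its age at all 3 ages, and the ages overlapped except for 10 weeks against 7 days. The differences were -0.21 (95% interval -0.62 to 0.20) for 7 days minus 24 hours, 0.39 (-0.02 to 0.80) for 10 weeks minus 7 days and 0.18 (-0.23 to 0.59) for 10 weeks minus 24 hours. With 1 array left out they ran from -0.33 to -0.00, from 0.22 to 0.51 and from 0.01 to 0.39. The first came closest to 0 without 24-hour replicate 2, and the other two without 10-week replicate 2. Igfbp1, its neighbour on chromosome 11, lay between 4.35 and 4.74 on the 9 arrays and passed in no comparison either.

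Markers of stromal and blood-derived cells moved over the same ages. The summed linear signal of 10 fibroblast markers was 11262 to 12836 at 24 hours, 16383 to 20509 at 7 days and 9946 to 11442 at 10 weeks. Of them 4 rose and 0 fell in the first week, 6 not passing, where 5.27% of all genes rose and 4.81% fell. From 7 days to 10 weeks 1 rose and 7 fell, where 17.0% of all genes rose and 18.9% fell. Between 24 hours and 10 weeks 4 rose and 5 fell, where 19.5% of all genes rose and 20.6% fell. Gsn differed by 1.54 and Col1a1 by -2.52 there, so the sum hides markers that moved in opposite directions. Within the 7-day arrays the fibroblast sum was 16383, 20509 and 18496 on replicates 1, 2 and 3, where Igfbp4 measured 8.89, 9.32 and 9.14 and Igfbp7 11.86, 12.06 and 12.03. Ucp1 had the same order, at 4.30, 11.23 and 9.27. Igfbp5, at 9.19, 9.73 and 9.77, and Igfbp6, at 6.94, 7.15 and 7.48, were highest on replicate 3 instead. The sum of 9 endothelial markers was 5364 to 5411, 5850 to 6126 and 4811 to 5225 at the 3 ages. Between 24 hours and 10 weeks 3 of them rose and 4 fell. That of 8 smooth muscle and pericyte markers was 7477 to 7893, 6600 to 8379 and 4870 to 5580. Between 24 hours and 10 weeks 3 of these rose and 2 fell, with Acta2 at -2.35 and Rgs5 at 1.62. Both sums thus also hide markers that moved in opposite directions. The sum of 9 macrophage markers was 1047 to 1152, 1647 to 1749 and 3506 to 3804. Of them 7 were called higher in the first step and 9 in the second, where 5.27% and 17.0% of all genes were. The part of these cells in the levels of the Igf genes was not tested.

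Some markers of tissues outside the heart were high on single arrays. The sum of 7 liver and plasma protein genes was 277, 302 and 280 on the 24-hour replicates, 205, 532 and 211 on the 7-day replicates, and 172 to 218 at 10 weeks. Single genes of that list ordered the arrays differently. Alb, the albumin gene, measured 5.27, 4.16 and 6.04 on the 24-hour replicates and 7.81 on 7-day replicate 2, while Ahsg, the fetuin gene, measured 6.80, 7.32 and 6.53 at 24 hours and 7.19 on 7-day replicate 2. That 7-day array had the highest Igf1 and, of the 9 arrays, also the highest fibroblast sum, Ucp1 signal and Alb signal. The part of these in the Igf1 signal was not tested; without that array the adult level of Igf1 was 1.07 lower than at 7 days and still passed. The sum of 5 brown fat markers was 3195 to 3575 at 24 hours, 3905, 6693 and 4571 on the 7-day replicates, and 5672 to 6553 at 10 weeks, where Ucp1 measured only 3.92 to 4.23. Cox7a1 of that list averaged 10.75, 11.21 and 12.24 at the 3 ages, so the high sum at 10 weeks is that of Cox7a1 and not of Ucp1. The sum of 5 white fat markers was 1590 to 1872, 2032 to 2737 and 1851 to 2152 at the 3 ages. Fabp4, by far the brightest of them, averaged 10.68, 11.03 and 10.83. Adipoq and Plin1 were highest on 7-day replicate 2, at 7.71 and 7.48, and next on 7-day replicate 3, at 5.33 and 5.58. The sum of 5 lung markers was 144 on 24-hour replicate 1 and 197 on 7-day replicate 2, and 82 to 92 on the other arrays. Of these Scgb1a1, a secretory gene of the airway, measured 5.83 and 6.83 on those arrays and 2.49 to 2.76 elsewhere, and the surfactant gene Sftpc 3.62 to 3.80 on all 9. The sum of 5 atrial markers was 11311 to 14423 at 24 hours, 12553 to 14766 at 7 days and 5899 to 7088 at 10 weeks. Nppa, the brightest of them, measured 12.49 to 12.57 at 10 weeks. On the 10-week replicates Myl7 measured 4.70, 8.43 and 7.52 and Myl4 6.43, 9.77 and 8.83, so the adult arrays differed in some atrial transcripts. Bmp10 averaged 8.23 at 24 hours and 9.73 at 7 days, and lay at 4.29 to 4.57 at 10 weeks. All 5 markers were lower at 10 weeks than at either younger age (limma's adjusted p under 0.05). Of all genes 18.9% fell from 7 days and 20.6% from 24 hours. The part of atrial tissue in the differences was not tested.

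**Figure D3:**
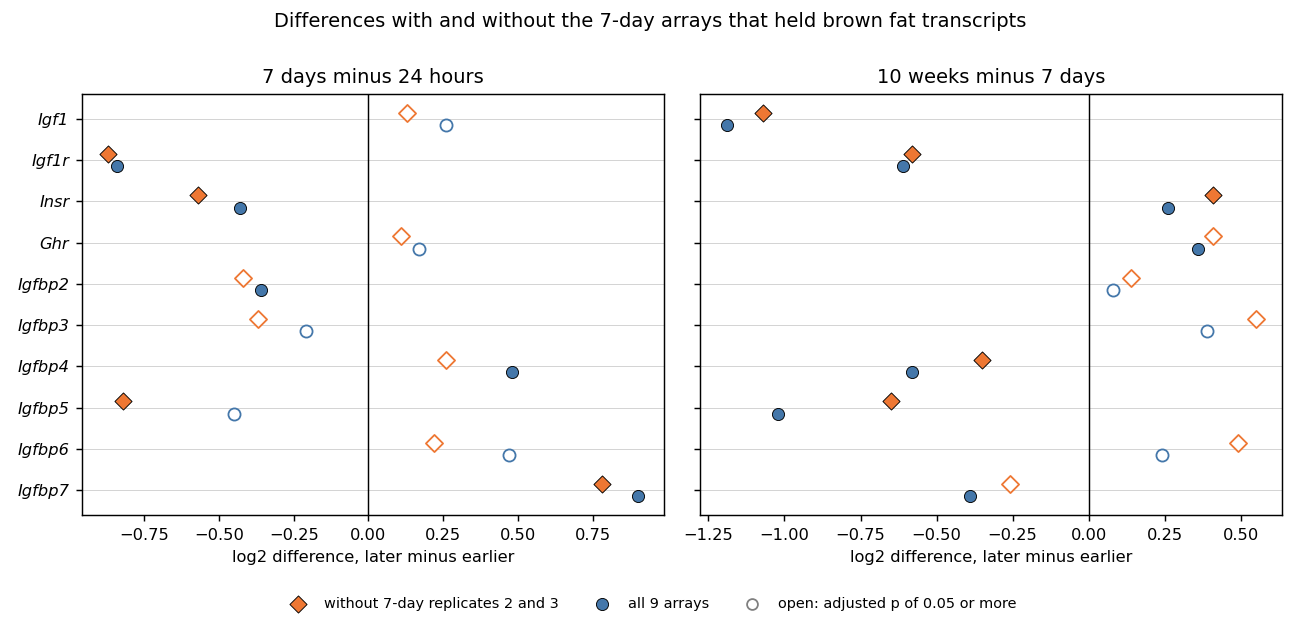
Log2 differences (x axis) of the 10 genes between 7 days and 24 hours (left) and between 10 weeks and 7 days (right), without 7-day replicates 2 and 3 (diamonds) and with all 9 arrays (circles); open symbols had an adjusted p of 0.05 or more. Each pair lies on the same side of 0, and the largest move is that of Igfbp5, which is -0.82 without the arrays and -0.45 with them in the first week.

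The rest of the pathway was read from 7 lists with 71 genes, of which 67 were measured by a single-symbol probe set. In the first week 7 of the 67 rose and 10 fell, where 10.1% of all genes were called. From 7 days to 10 weeks 17 rose and 23 fell, where 35.9% of all genes were called, and from 24 hours to 10 weeks 20 rose and 23 fell, where 40.1% were. The list medians over the 67 genes were -0.07, 0.06 and 0.02, near those of all genes at 0, 0.04 and 0.04. The first-week counts rest on few arrays: with 1 array left out they ran from 2 to 7 higher and from 4 to 12 lower, and 0 rose and 5 fell without 7-day replicates 2 and 3. Of the up to 3 first-week calls with the largest difference per list, that of Stat5b was lost in 14 of 21 alternatives. That of Akt2 was lost in 11, those of Adamts1, Irs1 and Klf15 in 10, that of Deptor in 8 and that of Tsc2 in 7. That of Stat5a was lost in 6, those of Htra1, Htra3 and Gab1 in 2 and that of Igf2 in 1.

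The genes of the other ligand and its clearance receptor fell in both steps. Igf2 averaged 12.04 ± 0.05 at 24 hours, 11.32 ± 0.07 at 7 days and 7.85 ± 0.21 at 10 weeks, a fall of 4.19 between the outer ages (18.31-fold, adjusted p = 8.22e-10). Igf2r, which carries IGF2 to the lysosome, averaged 10.39 ± 0.15, 9.20 ± 0.08 and 8.33 ± 0.08, and fell by 1.19, by 0.87 and, in all, by 2.06 on the log2 scale. Of the 4 measured genes of this list the acid-labile subunit gene Igfals and the insulin gene Ins2 passed in no comparison. Of the 2 further binding protein genes Igfbpl1 was 0.57 lower at 10 weeks than at 7 days (adjusted p = 0.00496), a step of -0.49 that did not pass without 7-day replicates 2 and 3, and 0.72 lower than at 24 hours.

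Proteases of the binding proteins and the inhibitors of these proteases were called in both directions. In the first week 2 of 9 rose and 1 fell (10.1% of all genes called), and 2 rose and 3 fell between 24 hours and 10 weeks (40.1% called). Htra3, a secreted serine protease gene, averaged 6.29 ± 0.18 at 24 hours, 7.16 ± 0.18 at 7 days and 7.55 ± 0.17 at 10 weeks, a rise of 1.27 in all (2.41-fold, adjusted p = 1.22e-05). Its relative Htra1 had its peak at 7 days, with means of 7.75 ± 0.08, 8.54 ± 0.23 and 8.05 ± 0.18. Mmp2, a matrix metalloproteinase gene, fell by 1.20 between 7 days and 10 weeks, and Stc1, which encodes an inhibitor of PAPP-A, by 0.62. The lysosomal protease gene Ctsd was 0.66 higher at 10 weeks than at 7 days. The PAPP-A gene Pappa lay between 4.56 and 5.30 and passed in no comparison.

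Among 10 genes of growth hormone signalling 3 rose and 2 fell between 24 hours and 10 weeks, near the 40.1% called over all genes. Socs2, a feedback inhibitor of growth hormone signalling, averaged 9.92 ± 0.06 at 24 hours, 9.94 ± 0.07 at 7 days and 8.65 ± 0.15 at 10 weeks. Its adult level was 1.29 ± 0.08 lower than at 7 days (2.45-fold, adjusted p = 5.42e-07). Cish, of the same family of inhibitors, was 0.30 lower at 10 weeks than at 7 days and 0.53 lower than at 24 hours. The transcription factor genes Stat5a and Stat5b rose in the first week, by 0.26 and 0.23, and the phosphatase gene Ptpn11 was 0.47 higher at 10 weeks than at 7 days. The related inhibitor genes Socs1 and Socs3 differed by 0.17 (adjusted p = 0.0848) and 0.16 (adjusted p = 0.101) between 24 hours and 10 weeks and did not pass.

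Of 12 genes listed as receptor adaptors 4 fell and 0 rose in the first week, where 4.81% of all genes fell and 5.27% rose. The list also holds genes of other kinds, among them the phosphatase gene Ptpn1 and the ubiquitin ligase gene Nedd4. Nedd4 was among those that fell in the first week, and both fell between 24 hours and 10 weeks. Between 24 hours and 10 weeks 8 of the 12 fell and 2 rose, where 20.6% of all genes fell and 19.5% rose. Their median difference between 24 hours and 10 weeks was -0.49, against 0.04 for all genes. Grb10, an imprinted gene whose product restrains insulin and IGF1 receptors, averaged 10.94 ± 0.02 at 24 hours, 10.14 ± 0.03 at 7 days and 8.46 ± 0.06 at 10 weeks. It fell by 2.48 between 24 hours and 10 weeks (5.58-fold, adjusted p = 6.87e-10). Its relative Grb14 was 0.67 higher at 10 weeks than at 7 days. Gab1, a docking protein gene, fell by 0.39 and then by 0.40, Irs1, the insulin receptor substrate gene, by 0.28 in the first week, and Nedd4, a ubiquitin ligase gene, by 0.84 between 24 hours and 10 weeks. Shc1 was 0.61 lower at 10 weeks than at 7 days.

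Of 21 measured genes of the PI3K, AKT and mTOR list 3 rose and 2 fell in the first week, and 7 rose and 6 fell between 24 hours and 10 weeks, against 10.1% and 40.1% of all genes called in either direction. Deptor, an inhibitor of mTOR, averaged 6.53 ± 0.07 at 24 hours, 6.85 ± 0.07 at 7 days and 7.42 ± 0.14 at 10 weeks. Eif4e, the gene of the cap-binding translation factor, was 0.77 higher at 10 weeks than at 7 days, Pik3r1, a regulatory subunit gene of PI3K, 0.70 higher and Tsc2, a restraint on mTOR, 0.70 higher after a first-week fall of 0.26. Of 9 FOXO factors and muscle atrophy genes 5 rose and 2 fell between 7 days and 10 weeks, with a list median of 0.33 against 0.04 for all genes, of which 17.0% rose and 18.9% fell. Klf15 rose by 1.49 in that step after a fall of 0.57 in the first week, the ubiquitin ligase gene Fbxo32 by 1.41 and the sestrin gene Sesn1 by 1.03, while the kinase gene Pdk4 fell by 0.98.

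**Figure D4:**
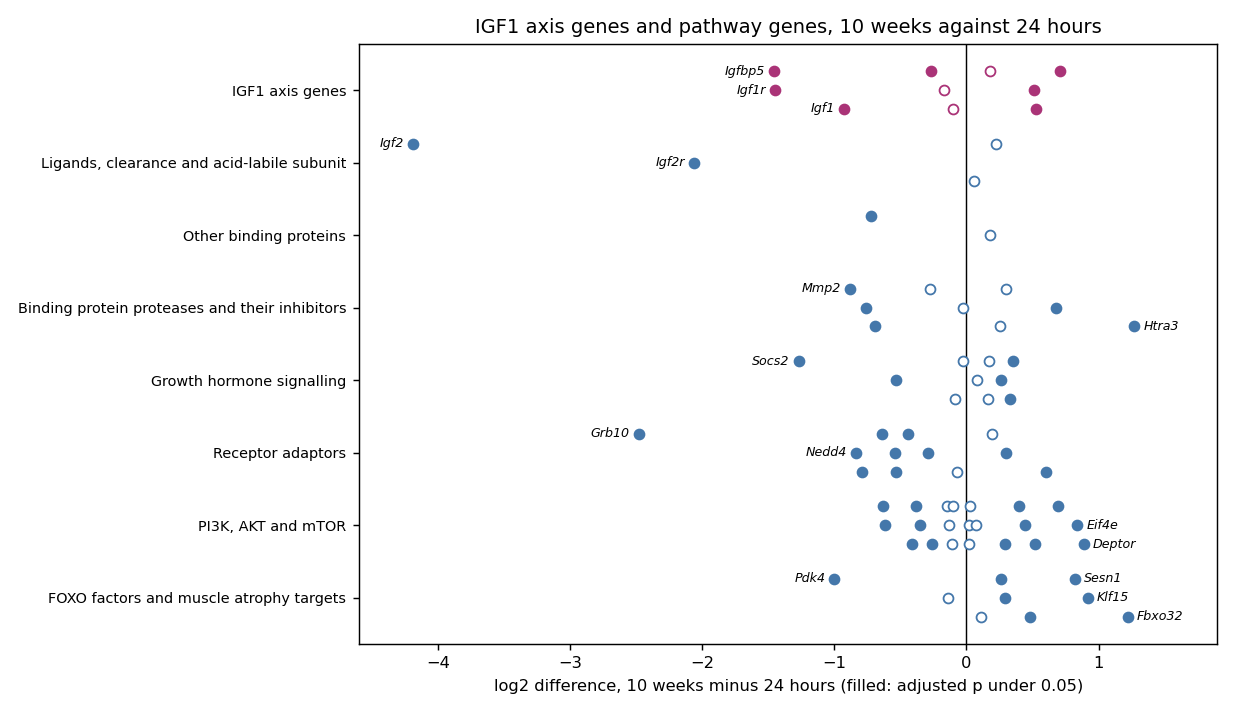
Log2 difference between 10 weeks and 24 hours (x axis) of the 10 IGF1 axis genes (top row) and of the 67 measured genes of 7 pathway lists (rows), 1 point per gene and filled where the adjusted p was under 0.05; genes with a difference of at least 0.8 in size are named. Igf2, at -4.19, and Grb10, at -2.48, lie farthest from 0.

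The genes that ran most like the members were searched among 1215 genes with age means at least 1 apart and a mean above the median of all genes. Over the 9 arrays Igf1 was most like the collagen genes Col6a2 (Pearson's r = 0.997), Col1a2 (0.996) and Col5a2 (0.993). Igf1r was most like Igf2r (0.999), Slc8a1, which encodes the sodium-calcium exchanger (0.995), and Fam189a2 (0.992). Igfbp5 was most like Agrn, which encodes the matrix protein agrin (0.982), Nynrin (0.982) and Elf4 (0.980). The 9 points fall into 3 ages, so these values describe the shared time course and carry no test. The means at 24 hours, 7 days and 10 weeks were 8.44, 8.80 and 7.43 for Col6a2 and 9.97, 10.51 and 7.97 for Col1a2, both highest at 7 days like that of Igf1. The first-week difference passed limma's test neither for Igf1 (adjusted p = 0.154) nor for Col1a2 (adjusted p = 0.0789). For Slc8a1 the means were 10.93, 9.90 and 9.19, a step down at each age like Igf1r.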

How the data were processed

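Total RNA of mouse hearts was measured on 9 arrays. The authors deposited a log2 signal for every feature on every array. The submitters' processing notes name MAS5 5.0. How probes were summarised and arrays put on 1 scale is not given in the sources used here. Base 2 follows from the highest value, 13.583: a natural log of a 16-bit intensity cannot exceed 11.09. Array medians differed by 0.048, under the limit of 0.1, and the signals were not rescaled.

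Of 35556 features 21789 have 1 gene symbol. Symbols were updated by Entrez id, and the probe set with the highest mean was kept, which left 19938 genes. limma 3.58.1 (R 4.3.3) fitted a mean for each age over the 9 arrays together, with eBayes and an intensity trend. Within a comparison the p-values of all genes were adjusted together (Benjamini and Hochberg); a gene was called under 0.05. The code was tested on simulated data. Groups came from the sample titles. Python 3.11.15 made tables and figures. Alternatives covered the variance prior, scaling, filter, probe sets, arrays and pairing.

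Members and lists were chosen with earlier results of these data known. The text names all members, up to 3 called genes with the largest difference per list and comparison, and the 3 genes most like a member whose age means span at least 1. Ages outside the rule, single markers and genes that passed in no comparison were named after their values were seen.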

Additional observations from a re-analysis of the deposited data

How the results depend on the processing

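Over 21 alternatives the calls of Igf1r in each comparison, of Igf1 and Igfbp5 against 10 weeks, of Igfbp7 in the first week, of Igfbp4 between 7 days and 10 weeks, and of Igfbp6, Igfbp7 and Ghr between 24 hours and 10 weeks held. Leaving out 1 array gave 1 to 3 members higher and 1149 to 2316 of all genes called in the first week, against 2 and 2009 with all arrays. For 10 weeks against 7 days it gave 1 to 2 members higher and 6124 to 7275 genes called, and for 10 weeks against 24 hours 6772 to 8085 genes. Leaving out 24-hour replicate 1 gave 1283 genes in the first week, leaving out replicate 2 of that age 1158, and leaving out 7-day replicate 3 gave 1149. Without 7-day replicates 2 and 3, which leaves 1 array assumed to vary like the others, the first week gave 1 member higher and 516 genes called, and the second step 1 member higher and 4156 genes. The 6 arrays compared alone gave 1 member higher in the second step. Without the 3 arrays with the highest Alb signal (24-hour replicates 1 and 3 and 7-day replicate 2, an alternative chosen after seeing the data, with 1 array left at 24 hours) the first week gave 1 member higher, 1 lower and 202 genes called. The second step then gave 1 member higher, and 4470 genes were called between 24 hours and 10 weeks, where Igfbp3 turned to -0.24 (adjusted p = 0.531). Fewer arrays were used in each of these.

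With each array centred on the median of the tested genes, also chosen after seeing the data, 888 genes were higher and 1247 lower in the first week, against 1050 and 959, and 5247 higher and 3307 lower in the second step, against 3388 and 3777. It turned no direction of a member and ended the call of Igfbp2 between 24 hours and 10 weeks (-0.25, adjusted p = 0.0504). The ages share replicate numbers. Of 9 same-numbered pairs of arrays 2 had deviations from their age means correlated above 0.1 (r from -0.174 to 0.133). Pairs of unlike number ran from -0.216 to 0.25, and 4 of 9 arrays correlated best with an array of their own number. These values show no pairing by number, but with 3 arrays per age they cannot exclude it. With the replicate block 1734, 6916 and 7724 genes were called in the comparisons, against 2009, 7165 and 7989, and Igfbp3 was 0.39 higher at 10 weeks than at 7 days and passed (adjusted p = 0.0256). Dim signals such as those of Igfbp2 and Igfbp1 limit what can be read from their differences.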
